A study of Drosophila melanogaster with 9 samples.

Results

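Synaptic release and neurotransmitter genes were followed across RNA-seq libraries of yw flies and of mutants of L(3)mbt or Lint-O. The set holds 38 genes, taken from a fixed list of synaptic vesicle, active zone, synaptic adhesion and neurotransmitter genes and found by FlyBase identifier among the 17611 genes of the count table. The list was not drawn from a measured contrast, but it was put together with earlier results of these data known. All 38 identifiers were in the table, and 37 genes had at least 1 count in some library; the exception was VAChT. The gene listed as Trh is the neuronal tryptophan hydroxylase, whose current symbol is Trhn.

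L(3)mbt is a chromatin protein whose loss causes brain tumors in larvae, and Lint-O is the partner protein that the study isolated with it. Per the labels, the 9 libraries are poly-A-selected RNA of third-instar larval brains, 3 libraries per genotype, from eggs laid at 25 °C and then kept at 29 °C over 5 to 6 days. The yw strain (yellow white) was the study's wild-type control, the L(3)mbt mutant carries the temperature-sensitive ts1 allele, and the Lint-O mutant is a knockout line obtained by CRISPR as a single-nucleotide deletion in the coding sequence. In the study's strain list, the Lint-O line has the yellow and white alleles of yw, and the L(3)mbt line is given with a white allele only. By these labels, differences of L(3)mbt mutants from either other group cannot be told apart from differences of strain background. The larvae of all groups, yw included, were kept at the higher temperature. The study calls the brain libraries biological replicates, and the labels do not say which crosses or animals each came from, so p-values measure the spread between these libraries.

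At a chemical synapse, transmitter is made by dedicated enzymes and loaded into vesicles by transporters, and the vesicles are held at the active zone by scaffold proteins. Calcium entry triggers fusion through SNARE proteins and their partners, endocytosis then retrieves the membrane, and adhesion proteins such as neurexin and neuroligin keep the pre- and postsynaptic sides together. The SNARE, NSF and endocytic parts of this machinery also serve membrane traffic in many other cells. Active zone scaffolds, synaptotagmin 1, neuronal synaptobrevin and the vesicular transporters are, by contrast, used mainly by neurons.

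Library totals ran from 18681293 to 31519287 counts, so that 1 CPM (a count scaled to library totals of equal size) stood for 18.7 to 31.5 counts. A count of 0 allows up to 3 counts, or 0.0952 to 0.161 CPM depending on the library; such limits cover counting error only. Of the mutated genes, l(3)mbt had 2915 to 3371 normalized counts (counts divided by a library size factor) in yw and 1733 to 1909 in L(3)mbt mutants, and Lint-O had 503 to 511 in yw and 79.9 to 88.8 in Lint-O mutants. All replicate pairs differed by more than counting noise, the ratio of chi-square to degrees of freedom being 4.72 to 20.4. The yw pairs that include replicate 3 gave 19.2 and 20.4, and the other yw pair gave 5.77. In L(3)mbt mutants the pairs with replicate 3 gave 12.4 and 16.6, and the other pair gave 4.72. In Lint-O mutants the pairs gave 5.51 to 9.47. Replicate 3 had the largest library total of its group in yw (31519287 counts) and in L(3)mbt mutants (27971416).

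The labelled tissue was checked against markers. Of 7 neuronal markers, elav and futsch exceeded 10 CPM in all libraries, but fne and para stayed under 1 CPM in every library. The neuroblast genes dpn, ase, grh and klu and the glial genes repo and gcm were under 1 CPM in all 9 libraries. The other neuroblast genes were above it in every library, insc at 22.4 to 33.2 CPM, wor at 6.61 to 11.6 and mira at 2.38 to 6.996, and so were the glial genes moody, loco and nrv2. All 4 listed genes of ovarian somatic cells exceeded 10 CPM everywhere, with tj at 403 CPM or more and fs(1)Yb at 138 CPM or more, and their sum was 571 to 809 CPM in yw, 629 to 722 in L(3)mbt mutants and 727 to 793 in Lint-O mutants. In the sample descriptions, the yw columns carry the name EGFP. The levels of tj, fs(1)Yb, dpn, ase, repo, fne and para go against the brain label, and since this holds for all 9 libraries, no result below could be given without the libraries concerned. The study also sequenced a cultured line of ovarian somatic cells in which either gene was knocked down, and its control there was an siRNA against GFP. Whether the table holds those cells was not tested. If it does, each fold change below would compare a knockdown with its control and not a mutant with yw. The groups are therefore called by their labels only.

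The summed neuronal markers were 88.0 to 112 CPM in yw, 134 to 152 in L(3)mbt mutants and 120 to 139 in Lint-O mutants, with Rbp9 at 4.44 to 5.08, 30.5 to 33.6 and 18.5 to 19.8 CPM and futsch at 20.9 to 30.5, 43.5 to 56.7 and 42.0 to 49.7. elav had 74.1, 62.1 and 48.0 CPM in yw replicates 1 to 3, 48.5 to 54.4 in L(3)mbt mutants and 50.9 to 61.6 in Lint-O mutants. For elav, yw replicates 1 and 2 thus lay above every mutant library and yw replicate 3 lay below them. para overlapped between the groups, at 0.0986 to 0.441 CPM over all libraries. Germline and testis markers, 5 genes led by vas, summed to 5.21 to 6.81, 287 to 344 and 152 to 157 CPM. Among the remaining lists, the 7 neuroblast genes summed to 39.4 to 46.3 CPM in yw, 44.8 to 45.5 in L(3)mbt mutants and 40.4 to 43.0 in Lint-O mutants. In the same order, the neuroblast gene mira had 2.38 to 3.97, 4.73 to 5.76 and 6.27 to 6.996 CPM. wor had 11.0 to 11.4, 6.61 to 7.05 and 10.4 to 11.6 CPM, and insc 25.7 to 31.3, 32.1 to 33.2 and 22.4 to 24.6. The 5 glial genes summed to 312 to 342 CPM in yw, 292 to 297 in L(3)mbt mutants and 297 to 316 in Lint-O mutants. Muscle genes summed to 174 to 183 CPM in Lint-O mutants, 122 to 145 in yw and 130 to 146 in L(3)mbt mutants, and the 4 hemocyte genes to 12.97 to 15.9, 8.04 to 9.52 and 15.4 to 19.8 CPM. In all libraries 3 of these 4 and all listed genes of fat body and imaginal disc stayed under 1 CPM. The part of these markers in the changes of the synaptic genes was not tested. In bulk RNA, fewer cells of a type and less RNA per cell cannot be told apart.

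Presence was described first, with no test. A gene was taken as present in yw at 1 CPM or more in all 3 yw libraries. By this measure 15 of the 38 genes were present, 3 were partly detected (Syn, Tdc2 and Nrx-1), and 20 were under 1 CPM in all 9 libraries. For comparison, 43.2% of all genes in the table were present in yw and 50.7% were under 1 CPM in all libraries.

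All 4 endocytic genes were present, as were 5 of 9 vesicle and fusion genes. None of the 6 transmitter transporters was present. The active zone and the adhesion and scaffold groups each had 2 of 6 genes present, and transmitter synthesis had 2 of 7.

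**Figure D1:**
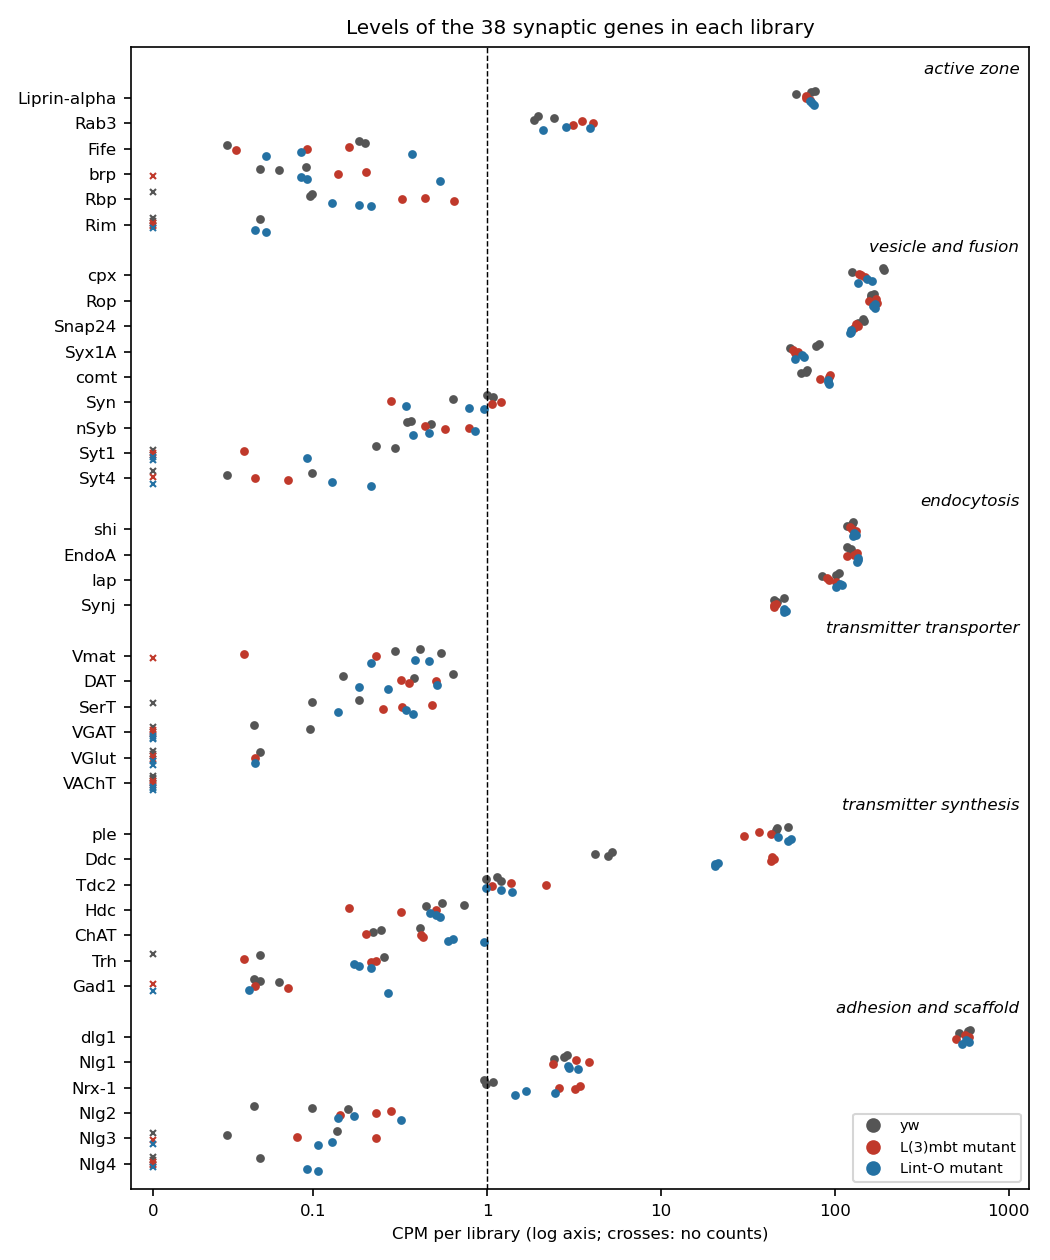
Level of each of the 38 synaptic genes in each of the 9 libraries, in CPM on a log axis (crosses mark libraries without a count; the dashed line is 1 CPM), grouped by role and colored by genotype. The 20 genes left of the line stay below 1 CPM in every library, and all 4 endocytic genes lie right of it.

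Among active zone genes, brp (Bruchpilot, the main scaffold of the fly active zone) had 0 to 0.535 CPM over the 9 libraries. Rim, a scaffold that binds Rab3, had 3 counts in all libraries together. Fife, a Rim-related protein, reached at most 0.369 CPM, and Rbp (Rim-binding protein) at most 0.644 CPM. In yw, every one of these scaffolds was thus at or close to the detection floor. Rbp was above the floor in L(3)mbt mutants, at 0.323 to 0.644 CPM. Liprin-alpha, a scaffold that also acts outside synapses, was by contrast at 60.1 to 76.4 CPM, and Rab3, the vesicle GTPase, was low but present at 1.87 to 2.42 CPM in yw.

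The calcium sensor Syt1 had no more than 0.296 CPM, and its relative Syt4 no more than 0.214. nSyb, the neuronal vesicle SNARE, had 0.345 to 0.853 CPM. Synapsin (Syn), which coats and clusters vesicles, had 0.281 to 1.20 CPM. The target-membrane SNAREs, in contrast, were abundant: Syx1A had 71.5 ± 14.0 CPM and Snap24 142 ± 5.59 CPM in yw (SD, n = 3). So were complexin (cpx, which binds assembled SNAREs), with 168 ± 37.9 CPM, and the Sec1/Munc18 protein Rop, with 164 ± 3.03 CPM.

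Per kilobase of countable exon, the highest of the 38 genes in yw was Snap24 with 77.0 ± 3.03 CPM per kb (SD, n = 3). Rop followed with 62.0 ± 1.15 and dlg1, the Discs large scaffold of septate junctions and synapses, with 49.2 ± 3.74. EndoA (endophilin A) came next with 29.4 ± 0.914. After it, comt (21.8 ± 1.01), shi (20.6 ± 0.878) and Syx1A (19.2 ± 3.77) did not differ beyond their spread. The same held for lap (15.7 ± 1.87), cpx (14.8 ± 3.32) and ple (12.8 ± 1.18), and for Liprin-alpha (11.3 ± 1.39) and Synj (9.97 ± 0.685). A wide gap then led to Ddc with 1.77 ± 0.194, and Rab3, Tdc2 and Nlg1 lay between 0.447 and 0.555 CPM per kb.

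All 6 transporters that load or clear transmitters were at the bottom of the range. VGlut (glutamate) had 3 counts and VGAT (GABA) 4 counts over all 9 libraries. VAChT (acetylcholine) had none, which allows up to 0.0952 to 0.161 CPM. This gene lies within the cholinergic locus and shares 8.54% of its exon length with ChAT, so most of its length could still be counted. Vmat, the vesicular monoamine transporter, had 0 to 0.539 CPM, SerT 0 to 0.481 CPM and DAT 0.148 to 0.639 CPM.

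Of the enzymes, ChAT (choline acetyltransferase), Gad1 (glutamate decarboxylase), Trh and Hdc (histidine decarboxylase) stayed under 1 CPM everywhere, with ChAT the highest at 0.964 CPM in a single Lint-O library. Tdc2, the tyrosine decarboxylase that makes tyramine, was at 0.981 to 2.17 CPM. The exceptions were ple, which encodes tyrosine hydroxylase, with 48.9 ± 4.48 CPM in yw, and Ddc, which encodes dopa decarboxylase, with 4.78 ± 0.527 CPM in yw (SD, n = 3). Both act in cuticle tanning as well as in dopamine synthesis. The dopamine transporters DAT and Vmat were thus near the floor in libraries where the first enzyme of the pathway was well expressed.

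Among adhesion genes, the neuroligins Nlg2, Nlg3 and Nlg4 stayed at or under 0.321 CPM. Nlg1 had 2.40 to 3.88 CPM, and their partner neurexin (Nrx-1) 0.959 to 1.09 CPM in yw.

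The question of the mutants was put next: which of these genes differ in level from yw. In L(3)mbt mutants, Ddc, Nrx-1 and comt rose and ple and Syx1A fell; in Lint-O mutants, Ddc and comt rose and Snap24 fell. Calls were made by DESeq2 over the whole table at an adjusted p under 0.01. In L(3)mbt mutants 30 of the 38 genes could be tested, and 3 were higher and 2 lower, where 18.1% of all 10687 tested genes were called higher and 12.6% lower. Of the 25 that were not called, 5 had an unadjusted p under 0.05. In Lint-O mutants 29 could be tested, and 2 were higher and 1 lower, where 13.4% of 10422 tested genes were higher and 7.52% lower. Of the 26 not called there, 3 had an unadjusted p under 0.05, and the shares of all genes at this unadjusted level were not computed. The shares of called synaptic genes were thus no larger than those of all genes. The median log2 fold change of the tested synaptic genes was -0.01 in L(3)mbt mutants and 0.08 in Lint-O mutants, beside -0.01 and 0.01 for all tested genes. Both comparisons use the same yw libraries.

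**Figure D2:**
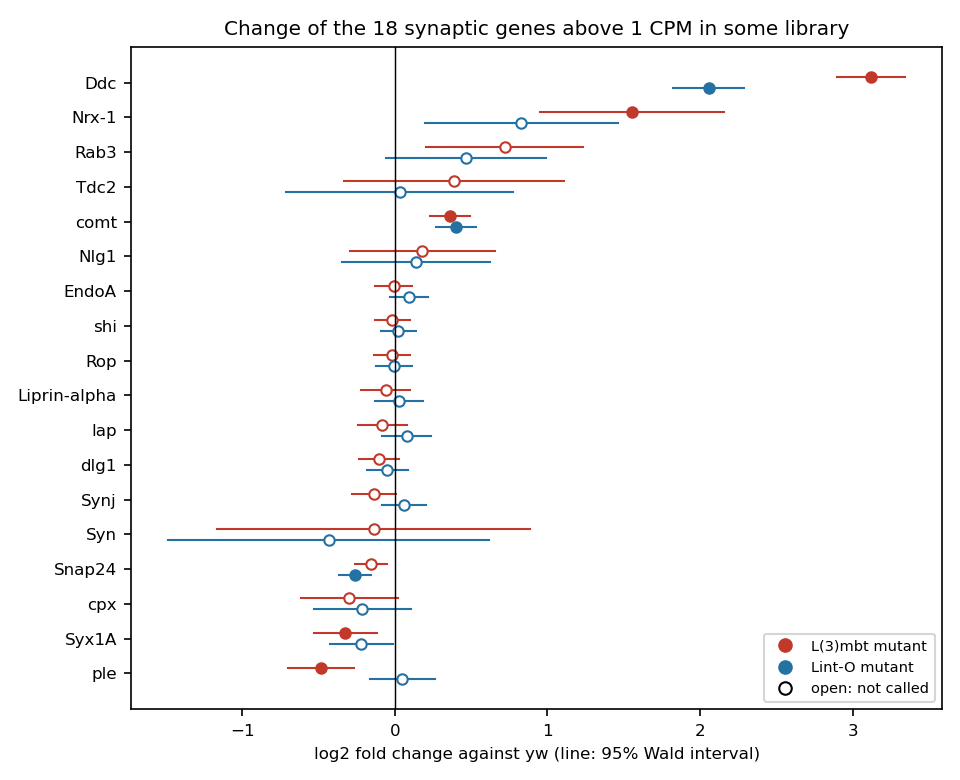
Log2 fold change against yw of the 18 synaptic genes that reached 1 CPM in some library, for L(3)mbt mutants (red) and Lint-O mutants (blue), with 95% Wald intervals; filled points are called at an adjusted p under 0.01. Ddc lies at 3.12 and 2.06, far to the right of every other gene, and most genes lie close to 0.

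Ddc (FBgn0000422, chromosome 2L:19116483-19120306, minus strand, BDGP6 assembly with dm6 coordinates) changed most. Its normalized counts were 123, 98.9 and 119 in yw replicates 1 to 3. They were 984, 1015 and 984 in L(3)mbt mutants and 488, 468 and 468 in Lint-O mutants. The 3 groups were fully separate, with yw lowest and L(3)mbt mutants highest. Ddc rose 8.71-fold in L(3)mbt mutants (log2 fold change 3.12, SE 0.11, DESeq2 adjusted p = 3.45e-164) and 4.16-fold in Lint-O mutants (2.06, SE 0.12, adjusted p = 2.18e-66). Only 3.15% of its exon length is overlapped, by a gene on the opposite strand.

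ple (FBgn0005626, 3L:6713356-6719525, minus strand), whose product acts just before Ddc in dopamine synthesis, moved the other way in L(3)mbt mutants. Its normalized counts were 1275, 1103 and 1100 in yw, 831, 970 and 690 in L(3)mbt mutants, and 1083, 1275 and 1240 in Lint-O mutants. The L(3)mbt libraries lay below all others, while yw and Lint-O mutants overlapped. ple fell 1.40-fold in L(3)mbt mutants (log2 fold change -0.48, SE 0.11, DESeq2 adjusted p = 4.92e-05). In Lint-O mutants its log2 fold change was 0.05, with a 95% interval from -0.16 to 0.26 (adjusted p = 0.811).

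Nrx-1 (FBgn0038975, 3R:22468512-22486969, plus strand), the presynaptic partner of neuroligins, was higher in L(3)mbt mutants at a low level. It had 22.6, 25.6 and 23.6 normalized counts in yw, 77.4, 58.6 and 74.0 in L(3)mbt mutants, and 38.04, 55.7 and 33.2 in Lint-O mutants. Neither mutant overlapped yw, nor did the mutants overlap each other. The log2 fold change was 1.55 in L(3)mbt mutants (SE 0.31, DESeq2 adjusted p = 3.28e-06). The 0.83 of Lint-O mutants (SE 0.32, adjusted p = 0.0374) was not called.

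The fusion factor genes moved by small amounts. comt (FBgn0000346, X:13259021-13262488, plus strand) encodes NSF, the ATPase that takes SNARE complexes apart. It had 1639, 1618 and 1528 normalized counts in yw, 2136, 2113 and 1897 in L(3)mbt mutants, and 2097, 2087 and 2124 in Lint-O mutants. All mutant libraries were above all yw libraries. The rise was 1.28-fold in L(3)mbt mutants (log2 fold change 0.36, SE 0.07, DESeq2 adjusted p = 5.95e-07) and 1.32-fold in Lint-O mutants (0.40, SE 0.07, adjusted p = 4.96e-08).

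Snap24 (FBgn0266720, 3R:9761305-9763150, minus strand) encodes a SNAP-25-type SNARE. Its normalized counts were 3415, 3447 and 3257 in yw, 3023, 3070 and 2972 in L(3)mbt mutants, and 2812, 2811 and 2812 in Lint-O mutants. The groups did not overlap, and yw was highest. Snap24 fell by 0.26 on the log2 scale in Lint-O mutants (SE 0.05, DESeq2 adjusted p = 1.40e-05). In L(3)mbt mutants the log2 fold change was -0.16 (SE 0.05), which missed the threshold (adjusted p = 0.0104).

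Syx1A (FBgn0013343, 3R:24101600-24105763, minus strand) encodes syntaxin, the SNARE of the plasma membrane, and lies within the span of eIF4EHP, with 10.7% of its exon length shared on the same strand. It had 1916, 1839 and 1331 normalized counts in yw, 1310, 1391 and 1353 in L(3)mbt mutants, and 1484, 1515 and 1361 in Lint-O mutants. yw replicate 3 lay among the L(3)mbt libraries, and the other yw replicates lay above every mutant library. The log2 fold change of -0.32 in L(3)mbt mutants was called (SE 0.11, DESeq2 adjusted p = 0.00696), and that of -0.22 in Lint-O mutants was not (adjusted p = 0.109). The L(3)mbt call was lost without yw replicate 1 (-0.23, adjusted p = 0.0958), without yw replicate 2 (-0.27, adjusted p = 0.0618) and without any single L(3)mbt replicate. It was also lost under edgeR (-0.35, adjusted p = 0.0138). Without yw replicate 3, Syx1A was called lower in Lint-O mutants too (-0.37, adjusted p = 2.00e-05).

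**Figure D3:**
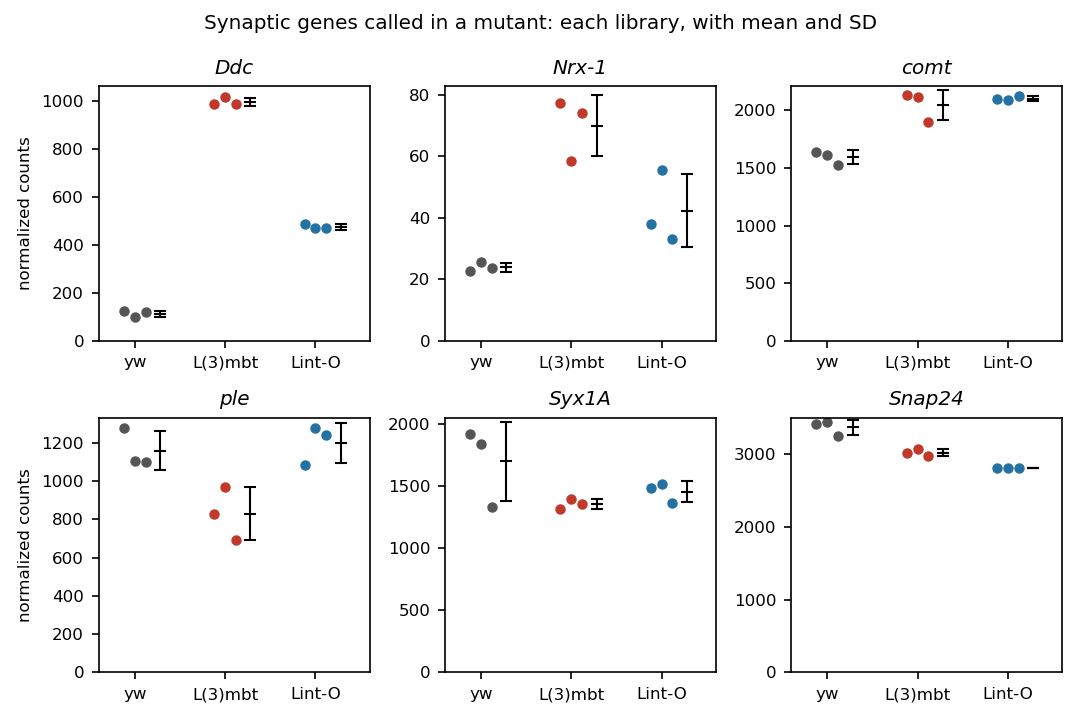
Normalized counts per library of the 6 synaptic genes called in either mutant; points are the 3 libraries of a group and bars give the mean and SD, on axes that start at 0. Ddc separates the 3 groups, ple is low in L(3)mbt mutants, and in Syx1A yw replicate 3 (1331) sits with the L(3)mbt libraries (1310 to 1391).

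The gene cpx showed the same low value in yw replicate 3. It had 4455, 4530 and 2993 normalized counts in yw, 3127, 3186 and 3421 in L(3)mbt mutants, and 3516, 3710 and 3107 in Lint-O mutants. The log2 fold changes of -0.30 and -0.21 were not called (DESeq2 adjusted p = 0.136 and 0.365). Without yw replicate 3, cpx was called lower in both mutants. Under that condition the number of lower synaptic genes went from 2 to 4 in L(3)mbt mutants and from 1 to 3 in Lint-O mutants. The share of all tested genes called lower without yw replicate 3 was not computed, so these counts cannot be set against it.

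The other present genes stayed close to their yw level. For the 4 endocytic genes, namely shi (dynamin), EndoA, Synj (synaptojanin, a lipid phosphatase) and lap (the AP180 clathrin adaptor), log2 fold changes ran from -0.13 to -0.01 in L(3)mbt mutants and from 0.02 to 0.09 in Lint-O mutants. Their 95% intervals together spanned -0.28 to 0.12 and -0.09 to 0.24. Rop, the syntaxin-binding fusion factor, gave -0.02 (95% interval -0.14 to 0.10) and -0.01 (-0.12 to 0.11). Liprin-alpha gave -0.06 and 0.03 and dlg1 -0.10 and -0.05. For these genes a 2-fold change in either direction was outside the intervals.

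At lower levels the intervals were wider. Rab3 had 46.3, 57.0 and 44.9 normalized counts in yw, 80.1, 92.1 and 71.5 in L(3)mbt mutants, and 65.3, 89.4 and 48.0 in Lint-O mutants. The L(3)mbt libraries lay above yw, but the log2 fold change of 0.72 (SE 0.26) was not called (DESeq2 adjusted p = 0.0180). Nlg1 gave 0.18 and 0.14, with intervals reaching from -0.30 to 0.66 and from -0.34 to 0.62. Tdc2 gave 0.39 and 0.03 and Syn -0.14 and -0.43, none of them called.

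None of the 20 genes under 1 CPM was called by DESeq2 or edgeR in any comparison. edgeR removed genes of low count before its test, so any gene it removed could not be called. At an unadjusted p under 0.05 by DESeq2, 2 were higher and 1 lower in L(3)mbt mutants and 1 was higher in Lint-O mutants. The shares of all genes at that unadjusted level were not computed. Of the 38 genes, 8 in L(3)mbt mutants and 9 in Lint-O mutants were too low to be tested by DESeq2. Between the mutants, 16 were not tested. The nearest to a call were Rbp and Vmat in L(3)mbt mutants. Rbp had 0, 2.33 and 2.28 normalized counts in yw against 10.02, 7.33 and 14.8 (adjusted p = 0.0124 by DESeq2), and it was called higher when libraries were scaled by total counts. Vmat had 9.70, 6.98 and 12.9 in yw against 0.911, 5.23 and 0 (adjusted p = 0.0252 by DESeq2), with 26.2% of its exon length overlapped by genes on the opposite strand. ChAT had a log2 fold change of 1.28 in Lint-O mutants (adjusted p = 0.101 by DESeq2).

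The mutants were then compared directly. Of the 22 synaptic genes tested, 1 was higher in L(3)mbt mutants (Ddc) and 1 was lower (ple), where 9.22% of the 9097 tested genes were higher and 5.71% lower. Ddc was 2.09-fold higher in L(3)mbt than in Lint-O mutants (log2 difference 1.07, SE 0.09, DESeq2 adjusted p = 1.07e-28). ple was 1.45-fold lower (-0.53, SE 0.11, adjusted p = 1.77e-05). For Nrx-1 the log2 difference of 0.72 (SE 0.29) was not called (adjusted p = 0.0549). comt and Snap24 differed by -0.04 (95% interval -0.17 to 0.09) and 0.10 (-0.00 to 0.21), so that for these genes the effects of the mutants were not shown to differ.

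The neighbors of the called genes were inspected after their values had been seen. amd, which encodes a relative of Ddc and starts a few kilobases from it (2L:19110154-19114110, plus strand), rose in both mutants, by a log2 fold change of 1.92 (DESeq2 adjusted p = 1.07e-118) and 1.85 (adjusted p = 3.54e-108). CG10561, which lies between amd and Ddc, was not called (-0.41 and -0.01). On the other side, Phb1 was lower in both mutants (-0.30 and -0.25), and l(2)37Cb and l(2)37Cd were not called. None of the 6 genes around Nrx-1 was called in either mutant against yw, with 0 at an unadjusted p under 0.05 and 0 by edgeR. The shares of all genes at these last 2 settings were not computed. eIF4EHP, whose span holds Syx1A, was lower in both mutants (-0.31 and -0.32, adjusted p = 0.00881 in each), and the nearby Hsp68 was higher in both (1.10 and 1.45). Around ple, SP1173 (0.47) and CG8519 (1.23) were higher and dikar (-0.47) lower in L(3)mbt mutants, and Sbds was lower in both (-0.33 and -0.31). Around Snap24, Alg12 was lower (-0.60 and -0.41) and Naa80 higher (0.60 and 0.58) in both mutants, and MED6 was lower in L(3)mbt mutants (-0.31). Around comt, mew was higher in L(3)mbt mutants (0.49), and HDAC4 (-0.29) and CG15743 (-0.28) were lower in Lint-O mutants. Neighbors of the called genes thus moved in both directions. Of all tested genes, 18.1% were higher and 12.6% lower in L(3)mbt mutants, and 13.4% and 7.52% in Lint-O mutants.

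A further 78 genes of the same pathways, in 5 lists chosen with results of these data known, were read by counts and medians. For all 5 lists, the shares of all genes at an unadjusted p under 0.05 or by edgeR were not computed. List counts at those settings therefore cannot be set against all genes. The 20 genes of SNAREs and membrane fusion serve general membrane traffic, and 19 were present in yw. In L(3)mbt mutants 1 rose and 5 fell of 20 tested, where 18.1% of all tested genes were higher and 12.6% lower. In Lint-O mutants none rose and 2 fell, where 13.4% were higher and 7.52% lower. The medians were -0.05 and -0.03. In Lint-O mutants, 3 genes were higher at an unadjusted p under 0.05, and edgeR called 1 higher. That gene was Syx4, chosen after its values were seen, which stayed under 1 CPM with 1.64 ± 0.634 normalized counts in yw, 6.94 ± 5.11 in L(3)mbt mutants and 11.2 ± 1.501 in Lint-O mutants (SD, n = 3; log2 fold changes 2.08 and 2.78, DESeq2 adjusted p = 0.0719 and 0.0152). Vps45, a Sec1/Munc18 protein of endosomes, fell by 0.47 on the log2 scale in L(3)mbt mutants, Bet1 and Slh, of Golgi traffic, fell by 0.33 and 0.28, and the Golgi SNARE Gos28 rose by 0.34.

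Of clathrin endocytosis genes, 2 rose and 3 fell of 14 tested in L(3)mbt mutants, beside 18.1% and 12.6% of all tested genes, and none was called in Lint-O mutants, beside 13.4% and 7.52%. The medians were -0.04 and -0.00. At an unadjusted p under 0.05, 5 of these genes were higher and 2 lower in Lint-O mutants, and edgeR called 0. The shares of all genes at these 2 settings were not computed, so the counts cannot be set against them. Amph (amphiphysin) rose by 0.58 in L(3)mbt mutants and lqf (epsin) by 0.33, and the endosomal GTPase Rab5 fell by 0.28 and AP-2mu, of the clathrin adaptor complex, by 0.23. Of the 16 listed genes, 14 were present in yw.

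Active zone and calcium-triggered release genes outside the 38 gave the following counts: 6 of 14 tested rose and 1 fell in L(3)mbt mutants (all tested genes: 18.1% and 12.6%), and 6 of 13 rose and none fell in Lint-O mutants (all tested genes: 13.4% and 7.52%). The median log2 fold changes over the tested genes were 0.58 and 0.71. In L(3)mbt mutants these include Sytalpha, not called, with 0.359 normalized counts in yw and 4.94 in the mutants. At an unadjusted p under 0.05, as by edgeR, Lint-O mutants still had 0 lower genes. Syt7, a synaptotagmin, had 48.2 ± 30.1 normalized counts in yw, 461 ± 80.7 in L(3)mbt mutants and 653 ± 154 in Lint-O mutants (SD, n = 3 each; log2 fold changes 3.27 and 3.77). Syt14 had 50.7 ± 7.80, 483 ± 34.8 and 487 ± 34.6 (3.27 and 3.29). The calcium channel gene cac rose by 1.45 and 1.46, and Cadps, a priming factor of dense-core vesicles, by 1.41 and 1.75. unc-13, the priming factor of synaptic vesicles, was present at 234 CPM or more in every library, with log2 fold changes of -0.06 and 0.21 that were not called.

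Transmitter synthesis and uptake genes outside the 38 gave 6 higher and none lower of 13 tested in L(3)mbt mutants (all tested genes: 18.1% and 12.6%), and 5 higher and none lower of 13 in Lint-O mutants (all: 13.4% and 7.52%). The medians over the tested genes were 0.99 and 0.68. These genes include some at low counts that were not called. Hn had 1.14 normalized counts in yw and 5.79 in L(3)mbt mutants, and e had 6.90 and 2.01. Medians over the genes present in yw alone were not computed. At an unadjusted p under 0.05, 1 was lower in L(3)mbt mutants and 0 in Lint-O mutants, and edgeR called 0 lower in each. Of the 15 genes, 6 were present in yw. Pu, the GTP cyclohydrolase that starts synthesis of the cofactor of tyrosine hydroxylase, rose from 539 ± 82.9 normalized counts in yw to 1142 ± 112 in L(3)mbt mutants and 861 ± 38.4 in Lint-O mutants (SD, n = 3; log2 fold changes 1.09 and 0.68). b, which makes beta-alanine, rose by 1.03 and 1.08. Gat, a GABA transporter, rose by 1.78 and 2.18 and Gs1 (glutamine synthetase) by 2.07 and 0.95, both from a low level, at 10.9 ± 3.47 and 26.4 ± 10.04 normalized counts in yw.

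Of 12 synaptic adhesion and scaffold genes, all present in yw, 3 rose and 1 fell in L(3)mbt mutants (all tested genes: 18.1% and 12.6%) and 3 rose and none fell in Lint-O mutants (all: 13.4% and 7.52%). The medians were 0.00 and 0.15. At an unadjusted p under 0.05, 1 was lower in Lint-O mutants, and edgeR called 0. Grip, a PDZ scaffold, rose by 1.55 and 1.15. The immunoglobulin-family adhesion genes went apart: Fas3, also one of the ovarian somatic markers above, rose by 0.89 in L(3)mbt mutants while Fas2 fell by 0.89, and in Lint-O mutants neither was called (0.16 and -0.16). Ten-m (a teneurin) rose by 0.46 in Lint-O mutants and was not called in L(3)mbt mutants (0.16), with a direct difference of -0.30 (DESeq2 adjusted p = 0.00178).

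**Figure D4:**
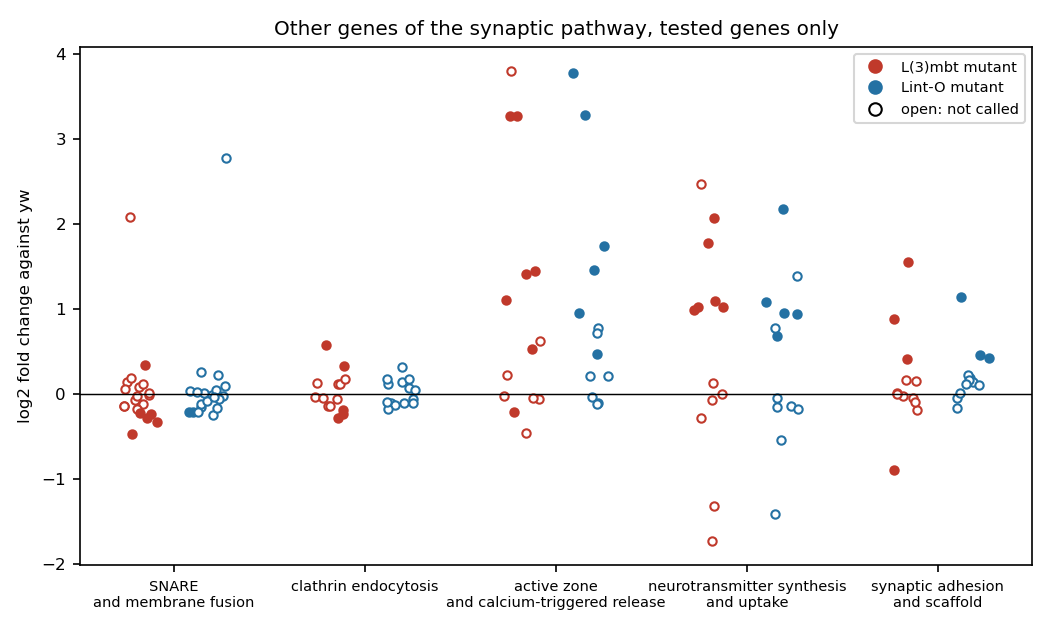
Log2 fold change against yw of the tested genes in 5 further lists of the synaptic pathway, with filled points for genes called at an adjusted p under 0.01 in L(3)mbt mutants (red) or Lint-O mutants (blue). The SNARE and endocytosis lists are centered near 0. The release and transmitter lists have medians of 0.58 to 0.99 over tested genes, some of them under 1 CPM in all libraries.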

How the data were processed

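RNA-seq of 9 libraries, 3 per group, was read from the deposited table of raw read counts per gene, with 1 column per library and no normalization by the authors. Per the submitters' processing notes, HISAT2, featureCounts and the dm6 genome were used. The use of strand is not given in the sources used here. All 9 columns were assigned by the names in the sample descriptions. Symbols and positions came from Ensembl's BDGP6 annotation, which gave 17559 of 17611 genes (52 not found). Of 581 genes whose exons are overlapped over more than 99% by other genes, 98.6% had no counts, against 22.5% of 12049 genes without overlap, so reads in shared exons appear not to be in the counts.

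DESeq2 1.42.0 (R 4.3.3) was fitted to all 9 libraries with 1 coefficient per group, as the study's stated method and threshold, with median-of-ratios size factors, two-sided Wald tests, default Cook's and independent filtering and Benjamini-Hochberg adjustment over all genes tested. The threshold for a call was an adjusted p under 0.01, and genes without an adjusted p were not tested. SE is that of the log2 fold change, and intervals are 95% Wald intervals. The script was tested on simulated data. CPM was computed from the deposited counts and library totals, and divided by exon length not shared with other genes for levels between genes. Alternatives were edgeR 4.0.16 (quasi-likelihood), TMM factors, scaling by total counts, a minimum of 10 counts, no filtering, an adjusted p under 0.05, a 2-fold minimum, fits of 2 groups, a replicate block and leaving out each library.

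The labels do not say what a replicate number stands for. Over 7562 genes, the deviations of same-numbered yw and Lint-O libraries from their group means correlated at r = 0.115, 0.127 and 0.347. Pairs of different number gave -0.266 to 0.174, a range that holds 0.115 and 0.127. The main fit did not pair the libraries, and replicate numbers entered only the alternative fit with a replicate block. The fit with the replicate block changed no call of a member.

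The members and all gene lists were chosen with earlier results of these data known. Called members with 1 CPM or more in all libraries of a group are given in full. In each further list, at most 4 called genes with the largest change and that level are named; unc-13, Syx4, Rbp9 and the genes near the called members were chosen after their values were seen. No sequences are shown.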

Additional observations from a re-analysis of the deposited data

Results flagged for a closer look

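Among the synaptic genes, 2 differed between the mutants by the direct test of that difference. Ddc was higher in L(3)mbt than in Lint-O mutants by 1.07 on the log2 scale (DESeq2 adjusted p = 1.07e-28), with all 3 L(3)mbt libraries (984 to 1015 normalized counts) above all 3 Lint-O libraries (468 to 488). The gene ple differed by -0.53 (DESeq2 adjusted p = 1.77e-05), with all 3 L(3)mbt libraries (690 to 970) below the Lint-O libraries (1083 to 1275).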

How the results depend on the processing

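The 3 higher synaptic genes of L(3)mbt mutants became 5 at an adjusted p under 0.05, with Rbp and Rab3 added. They became 4 with total counts, with Rbp added, and 2 with a 2-fold minimum, with comt lost. The 2 lower ones became 1 with total counts or a fit of 2 groups, 4 at an adjusted p under 0.05, 0 with a 2-fold minimum, and 1 to 4 with a library left out. For Lint-O mutants, the 2 higher genes became 3 at an adjusted p under 0.05, with Nrx-1 added, and 1 with a 2-fold minimum. The 1 lower gene became 0 with a 2-fold minimum, and leaving out a library gave 1 to 3 lower genes. In the direct comparison the 1 lower gene became 2 at an adjusted p under 0.05 and 0 with a 2-fold minimum. The cause was not tested beyond the settings' own construction, and the shares of all genes called under these settings were not computed. edgeR gave 2 lower genes in L(3)mbt mutants, with Snap24 in place of Syx1A, and TMM factors gave 3. Over the 6 named genes in 3 comparisons, 288 alternative fold changes kept their side of the threshold, 14 lost the call and 4 gained it. Among called values, 0 changed sign. The 2-fold minimum reused the main fold changes, so its losses were fixed by them. The 288 also include comparisons in which the gene was not called, and fits that left both compared groups whole. The tally is therefore no measure of how stable the calls are. Of the 17 alternatives for Syx1A in L(3)mbt mutants, 9 lost the call. Over all 17, kept calls included, its log2 fold change ran from -0.48 to -0.23 and its adjusted p from 5.25e-09 to 0.0958. Ddc stayed between 3.04 and 3.18 in L(3)mbt mutants and between 1.98 and 2.11 in Lint-O mutants. Presence in yw was 15 of 38, and 12 to 18 under other levels.

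Same-numbered libraries did not deviate together between yw and L(3)mbt mutants (r from -0.23 to -0.09 over 7562 genes), and weakly between the mutants (0.04 to 0.16). A replicate block left 3 higher and 2 lower genes in L(3)mbt mutants, 2 higher and 1 lower in Lint-O mutants, and changed no call. Total-count and TMM scaling moved the median gene by at most 0.06 on the log2 scale. At library totals of 18681293 to 31519287 counts, no member under 1 CPM was called by DESeq2 with its own size factors at an adjusted p under 0.01 over all 9 libraries, and Rbp was called in L(3)mbt mutants with total counts.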

Other observations

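Of the further release and transmitter genes with the largest rises, Syt7, Cadps and Gat lie on chromosome 4, the smallest fly chromosome, at 278685, 1230837 and 629691 (BDGP6). After this was seen, calls were counted by chromosome arm over all tested genes. On chromosome 4, 26 of 100 tested genes (26%) were higher and 7 lower in L(3)mbt mutants, and 29 of 98 (29.6%) were higher and 2 lower in Lint-O mutants. On the other arms, 17.1% to 19.04% of tested genes were higher in L(3)mbt mutants and 12.4% to 14.0% in Lint-O mutants. Lower genes made up 9.68% to 13.3% and 6.19% to 8.43% there. The median log2 fold change on chromosome 4 was -0.03 in L(3)mbt mutants and 0.23 in Lint-O mutants. unc-13, also on chromosome 4, was not called in either mutant. None of the 38 synaptic genes lies on this chromosome, and the pattern was not tested.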
